A study of Mus musculus with 6 samples.

Results

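Indian hedgehog signalling in the mouse uterus was followed through 8 genes: the ligand Ihh, the receptor Ptch1, the transducer Smo, the transcription factors Gli1, Gli2 and Gli3, the co-receptor Gas1 and the stromal nuclear receptor Nr2f2. Members were all probe sets whose array annotation gave one of these symbols as the only gene. This gave 10 probe sets, 2 each for Ptch1 and Nr2f2, of 12422 on the array that were not controls. RNA of whole uterine horns was hybridized to Affymetrix arrays, 1 array per time, so there were 6 groups of 1 array: uninjected mice, called 0 h here, and mice taken 6, 12, 15, 18 and 24 h after progesterone, given once under the skin (subcutaneously) at 0.2 mg, dissolved in sesame oil (0.1 mL). All groups were wildtype 129/SvImJ females of 10 to 16 weeks, an inbred strain, killed 14 days after ovariectomy or, for the progesterone groups, injected at that time. Each RNA sample pooled 8 horns of 4 mice, no array of mice given oil alone was analysed here, and the 0 h level behind all differences comes from 1 array. The horns hold epithelium, stroma, smooth muscle, vessels and leukocytes together, so fewer cells of a type and less RNA per cell cannot be told apart.

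Hedgehog ligands are secreted proteins that bind Ptch1 on neighbouring cells. Without ligand, Ptch1 holds Smo inactive. With ligand, Smo is released and the balance of the Gli factors shifts from repressors to activators, which raises transcription of Ptch1 and Gli1 themselves. In the mouse uterus Ihh is made by the epithelium under the control of progesterone and its receptor Pgr, and it acts on the stroma below, where Nr2f2, also called COUP-TFII, is one of its targets and is needed for implantation.

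Ihh was the member furthest from 0 h early, and Gli1 the one furthest from 0 h late. Ihh stood at 2.68 times its 0 h level at 6 h and at 1.27 times at 18 h, whereas Gli1 stood at 1.80 times its 0 h level at 6 h and at 2.66 times at 18 h. No other member reached 2-fold at any time. No member passed the limma tests described below after adjustment over all probe sets, and with 1 array per time no single time had a replicate check.

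The arrays were close in scale, with medians of 7.12 to 7.22 log2 units. A floor of 6.60 was set at the 40th percentile of all values, and each array had 7361 to 7557 probe sets above it. Values below the floor were raised to it, and the 7731 probe sets above it on at least 2 arrays were analysed. With 1 array at 0 h, a probe set above the floor at 0 h alone was left out. One above it only after progesterone was kept if at least 2 arrays were above. The shares of probe sets higher and lower than 0 h carry this difference. Of the 10 member probe sets 8 were analysed, standing for 7 genes, and all their values lay above the floor. The number of arrays limits the precision of every value. Levels below are log2 expression of 1 probe set and are compared between arrays. Probe sets are set beside each other only where the brighter one of a gene is named and in the sums of markers. Those sums add linear levels, so bright probe sets weigh most in them.

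The ligand Ihh had log2 expression of 8.22 in uninjected mice and 9.64, 9.38, 9.10, 8.56 and 8.73 at 6, 12, 15, 18 and 24 h. It was highest at 6 h, lower at each time up to 18 h, and lowest at 0 h, with no progesterone array below the uninjected one. The log2 differences from 0 h were 1.42, 1.16, 0.88, 0.34 and 0.51 from 6 to 24 h. At 6 h only 0.544% of all analysed probe sets were higher than 0 h by at least as much as Ihh, against 11.4% at 18 h. In the order of its levels, each pair of neighbours differed by no more than the middle 95% of all probe sets between the same arrays. The 18 h array was next above 0 h in that order. Between neighbouring times, the difference of 1.42 from 0 to 6 h was outside the middle 95% of -0.79 to 0.75. That of -0.54 from 15 to 18 h was outside -0.49 to 0.31. Across wider steps Ihh was 0.82 lower at 18 h than at 12 h, outside the middle 95% of -0.53 to 0.35, and 1.08 lower at 18 h than at 6 h, outside -0.73 to 0.65.

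The bases before the annotated start of Ihh are printed because this is the member with the largest difference from 0 h, and those of Ptch1 because it is the receptor and itself a target of the pathway. Sequences are from RefSeq, build GRCm38.p6, 5′ to 3′ on the strand of the gene, with every CpG in capitals. Ihh lies on the minus strand at chr1:74951673-74951922, and Ptch1 on the minus strand at chr13:63565736-63565985. The start used for Ptch1 is the one the RefSeq promoter table gives and lies downstream of the outermost start of the annotated gene.
Ihh: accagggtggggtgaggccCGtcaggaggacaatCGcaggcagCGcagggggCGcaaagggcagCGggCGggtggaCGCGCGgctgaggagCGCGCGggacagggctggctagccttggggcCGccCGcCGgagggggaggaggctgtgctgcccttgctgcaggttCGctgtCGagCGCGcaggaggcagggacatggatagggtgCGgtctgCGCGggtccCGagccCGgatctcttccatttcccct
Ptch1: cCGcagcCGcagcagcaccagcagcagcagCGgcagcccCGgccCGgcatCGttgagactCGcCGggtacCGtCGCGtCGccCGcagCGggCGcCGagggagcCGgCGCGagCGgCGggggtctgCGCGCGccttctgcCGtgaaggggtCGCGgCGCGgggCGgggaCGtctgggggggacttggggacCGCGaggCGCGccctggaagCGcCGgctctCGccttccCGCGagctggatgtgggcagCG
The 250 bases held 24 CpG in Ihh and 41 in Ptch1, against a median of 6 over 32851 promoters in the same table. Promoters were found for 7 of the 8 genes, all but Gli1. In windows of 300 bases, 250 before to 50 after the start, none of the 7 held the Gli site TGGGTGGTC, present in 0.253% of all promoters. None held the short steroid receptor motif TGTTCT, present in 19.0%, or the palindrome ACANNNTGT, present in 6.85%. Both strands were read, and a missing match says only that these letters are not in this window.

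**Figure D1:**
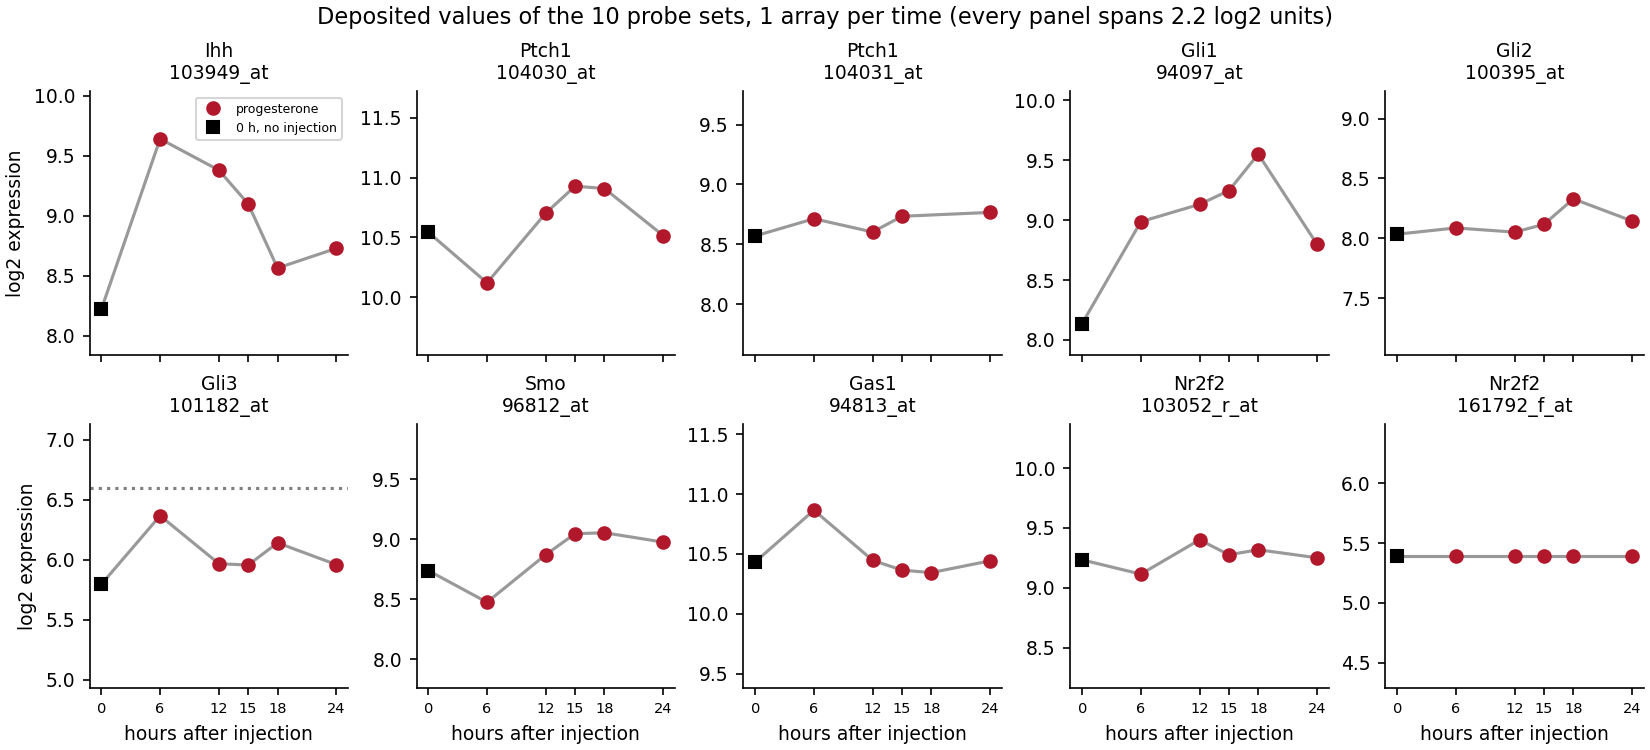
Deposited log2 expression (y axis) of each of the 10 probe sets against hours after injection (x axis), with the uninjected 0 h array as a black square and the 5 progesterone arrays as red circles. Each point is 1 array, every panel spans the same range, and the dotted line is the floor of 6.60 where it falls inside a panel. Ihh peaks at 6 h at 9.64, Gli1 at 18 h at 9.55, and Gli3 and the second Nr2f2 probe set stay under the floor.

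The receptor Ptch1, which binds the ligand, was read by a pair of probe sets that differed. Its brighter probe set, 104030_at, had log2 expression of 10.54 in uninjected mice and 10.12, 10.70, 10.93, 10.91 and 10.52 at 6, 12, 15, 18 and 24 h. It was lowest at 6 h, when Ihh was highest, highest at 15 and 18 h, and within 0.03 of its 0 h level at 24 h. The differences from 0 h were -0.42, 0.16, 0.38, 0.37 and -0.03. From 6 to 15 h it was 0.81 higher, above the middle 95% of -0.55 to 0.72 between these arrays, and the difference from 18 to 24 h was -0.39, below the middle 95% of -0.32 to 0.44. Neighbours in the order of its levels, 15, 18, 12, 0, 24 and 6 h, were within the middle 95% of each other. The second probe set, 104031_at, had values of 8.57 in uninjected mice and 8.71, 8.60, 8.73 and 8.77 at 6, 12, 15 and 24 h, with no value at 18 h. It spanned 0.20 over these 5 arrays, against 0.81 on the first, so the course seen on 104030_at was not shared by 104031_at.

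Smo, the membrane protein that Ptch1 holds inactive, had log2 expression of 8.74 in uninjected mice and 8.48, 8.87, 9.05, 9.06 and 8.98 at 6, 12, 15, 18 and 24 h. Like the first Ptch1 probe set it was lowest at 6 h, and unlike it stayed above the 0 h level at 24 h, by 0.24. Gas1, a membrane-anchored co-receptor that binds hedgehog ligands, had 10.43 in uninjected mice and 10.87, 10.45, 10.37, 10.34 and 10.44 at 6, 12, 15, 18 and 24 h. It stood apart from its 0 h level at 6 h only, by 0.43, and lay within 0.09 of it on the 4 later arrays. None of these values of Smo and Gas1 was outside the middle 95% of differences from 0 h.

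Gli1, a transcriptional activator whose own level is a common readout of hedgehog signalling, had log2 expression of 8.14 in uninjected mice and 8.99, 9.13, 9.25, 9.55 and 8.80 at 6, 12, 15, 18 and 24 h. Each progesterone array was above the uninjected one, with the highest value at 18 h. Ihh was highest at 6 h, the first time sampled after injection, so a delay between the 2 genes was not measured. The differences from 0 h were 0.85, 0.99, 1.11, 1.41 and 0.66, the one at 12 h just under 2-fold. They were above the middle 95% of all probe sets at 6, 12, 15 and 18 h and inside it at 24 h. At 18 h 0.441% of all analysed probe sets were higher than 0 h by as much. Neighbours in the order of its levels, 18, 15, 12, 6, 24 and 0 h, were within the middle 95% of each other. The difference of Gli1 from 18 to 24 h was -0.75, below the middle 95% of -0.32 to 0.44; Gli1 and the first Ptch1 probe set were the 2 members outside it on that step.

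Gli2, the main activator at the start of a hedgehog response, had log2 expression of 8.04 in uninjected mice and 8.09, 8.05, 8.12, 8.33 and 8.15 at 6, 12, 15, 18 and 24 h. Its 6 values spanned 0.29, with the highest at 18 h as for Gli1. Gli3, mostly a repressor, was not analysed, since its values of 5.80, 6.37, 5.97, 5.96, 6.14 and 5.96 from 0 to 24 h all lay under the floor, with the highest at 6 h and the lowest at 0 h.

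Nr2f2, the nuclear receptor of the stroma, had log2 expression of 9.23 in uninjected mice and 9.11, 9.40, 9.28, 9.32 and 9.25 at 6, 12, 15, 18 and 24 h on probe set 103052_r_at. Its 6 values spanned 0.29, and 6 h was the lowest array and 12 h the highest. Differences from 0 h lay between -0.12 and 0.17, inside the middle 95% at every time. Its other probe set, 161792_f_at, sat at the lower limit of the table, 5.39, on all 6 arrays and carried no information.

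**Figure D2:**
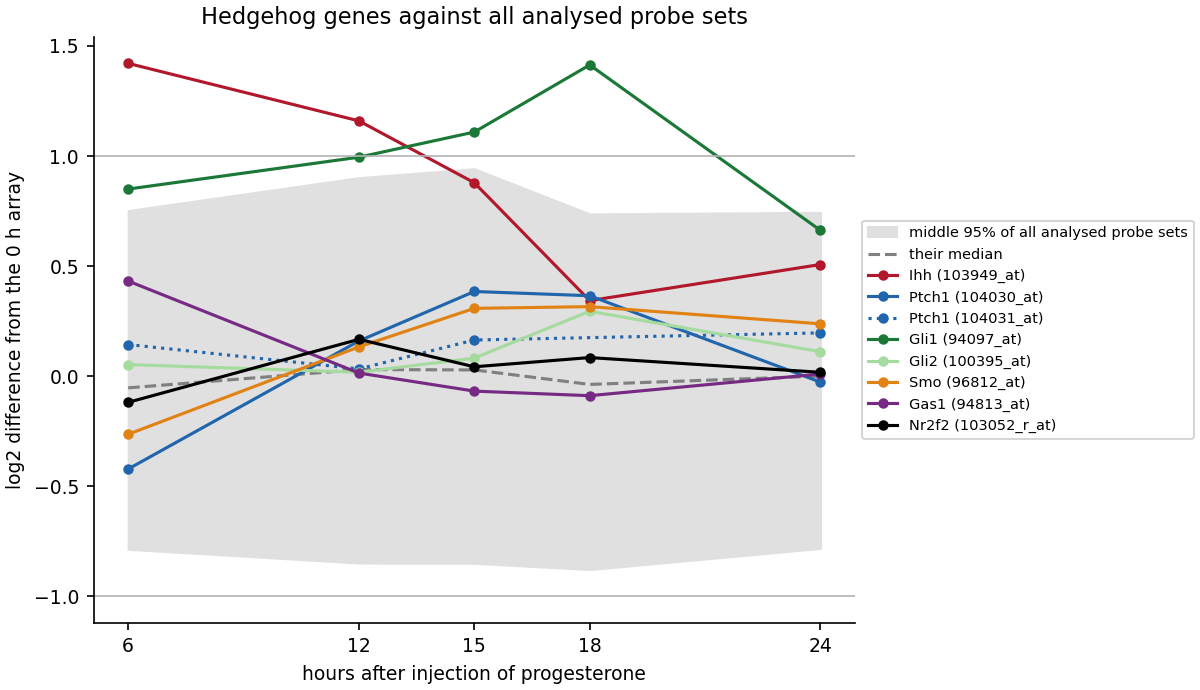
Log2 difference of each progesterone array from the 0 h array (y axis) against hours after injection (x axis) for the 8 analysed member probe sets, with the middle 95% of all 7731 analysed probe sets in grey and their median dashed. Points are single arrays, grey lines mark 2-fold, and the dotted blue line skips 18 h, where that probe set has no value. Ihh lies above the grey band at 6 and 12 h and Gli1 from 6 to 18 h, while the other members stay inside it.

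At 2-fold the members were counted against all analysed probe sets. Ihh was the 1 of 8 member probe sets at least 2-fold higher than 0 h at 6 h, where 1.41% of all probe sets were, and again at 12 h, where 1.83% were. Gli1 was the 1 of 8 at 15 h, against 2.05% of all probe sets, and the 1 of 7 with a value at 18 h, against 1.14%. At 24 h 0 of 8 were, against 1.06%. No member probe set was 2-fold lower at any time, whereas 1.1%, 1.75%, 1.58%, 1.8% and 1.39% of all probe sets were from 6 to 24 h. Of the 7 member probe sets with all values, 3 were higher than 0 h at all 5 times, those of Ihh, Gli1 and Gli2, beside 20.4% of all probe sets. The 5 differences share the 0 h array and are not independent of each other.

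The progesterone arrays as a group were compared with 0 h by limma, which fitted all probe sets at once, took the spread between the 5 times as error and assumed that the lone 0 h array varies like the others. At an adjusted p under 0.05 it called 2.69% of all probe sets tested, 0.893% as higher and 1.8% as lower; unadjusted, 19.0% were under 0.05. Of the 8 member probe sets 0 were called and 2, Ihh and Gli1, were under 0.05 unadjusted. Gli1 averaged 9.14 ± 0.28 (SD over 5 times) after progesterone and 8.14 at 0 h, a log2 difference of 1.01 ± 0.25 (SE, limma, adjusted p = 0.078), with adjusted p between 0.066 and 0.24 over 12 alternatives. Ihh averaged 9.08 ± 0.45 after progesterone and 8.22 at 0 h, a difference of 0.86 ± 0.36 (SE, limma, adjusted p = 0.25). Its larger SD holds the course over time described above. Intervals for the members with no 2-fold value were narrow for Nr2f2, with a difference of 0.04 and a 95% interval of -0.28 to 0.36, and for Gli2, with 0.11 and -0.23 to 0.45. They were wider for Ptch1 on 104030_at, with 0.09 and -0.55 to 0.73, and for Smo, with 0.15 and -0.36 to 0.65. For 104031_at of Ptch1, fitted on 5 arrays, the difference was 0.13 with an interval of -0.19 to 0.46, and for Gas1 it was 0.06 with -0.39 to 0.51.

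A second limma fit left out the 0 h array and asked for a linear course over hours among the 5 progesterone arrays. Of the 8 member probe sets 0 were called, beside 1.9% of all, 1.02% with a positive and 0.88% with a negative slope. Unadjusted, Ihh and Smo were under 0.05, 2 of 8 beside 21.4% of all. Ihh had a slope of -0.71 ± 0.16 log2 units per 12 h (SE, limma, adjusted p = 0.063), with a 95% interval of -1.07 to -0.35. Its slope was negative in each of 12 alternatives, and the adjusted p was 0.036 with no floor on low values, 0.044 after quantile normalization and 0.046 after rescaling the arrays to equal trimmed means, but up to 0.43 with an array left out. Smo had a slope of 0.34 ± 0.13 per 12 h (limma, adjusted p = 0.19), which was 0.07 without the 6 h array and 0.61 without 24 h. Ptch1 on 104030_at had 0.28 ± 0.20 (limma, adjusted p = 0.48), and the sign turned with an array left out: -0.25 without 6 h and 0.84 without 24 h. Gas1 had -0.27 ± 0.12 (limma, adjusted p = 0.25), against 0.01 without 6 h and -0.54 without 24 h. Gli1 had -0.03 ± 0.20 (limma, adjusted p = 0.96), a straight line through values that were highest at 18 h. Without 24 h its slope was 0.52, and without 6 h it was -0.33. Gli2, Nr2f2 and the second Ptch1 probe set had slopes of 0.09 ± 0.11, 0.07 ± 0.11 and 0.06 ± 0.11 (SE, limma), none of them called.

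Counts over the whole table moved in their split with scaling, and against 0 h also with no filter on expression, which left fewer higher and more lower. Against 0 h 69 probe sets were higher and 139 lower, or 104 and 136 with the arrays rescaled to equal trimmed means. Over hours 79 were higher and 68 lower, or 77 and 107 after that rescaling.

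The probe sets with the course most like that of Ihh were looked for among 6920 with 1 gene symbol and a value on every array, by the root mean square distance between log2 values centred on their own mean over the 6 arrays. Nearest were Ank, a membrane exporter of ATP and pyrophosphate, at 0.07, P4ha2, a subunit of the enzyme that hydroxylates proline in collagen, at 0.08, and Stx18, a membrane fusion protein of the endoplasmic reticulum, at 0.09. Pnkd and Etnk1, an ethanolamine kinase, followed at 0.10 each. Ank had log2 expression of 8.11, 9.71, 9.30, 9.09, 8.48 and 8.79 from 0 to 24 h, so it too was highest at 6 h and, among the progesterone arrays, lowest at 18 h. Gli1 had no neighbour as close: Pkdcc, a secreted tyrosine kinase, lay at 0.14, Carm1, an arginine methyltransferase, at 0.16, and Actl6a, a subunit of chromatin remodelling complexes, Ipo5, a nuclear import receptor, and Ptp4a3, a phosphatase, at 0.17 each. Pkdcc had differences from 0 h of 0.88, 0.92, 1.19, 1.13 and 0.82, without the step down of -0.75 that Gli1 had from 18 to 24 h.

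**Figure D3:**
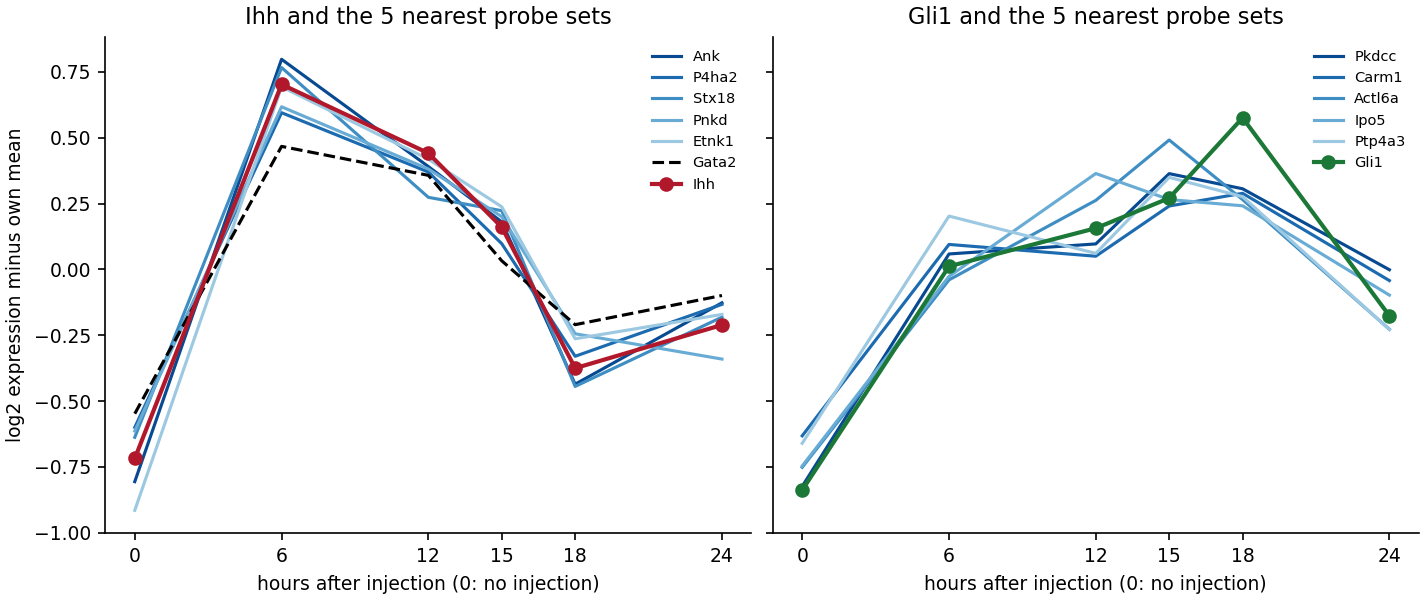
Log2 expression minus the mean of the same probe set over the 6 arrays (y axis) against hours after injection (x axis, 0 for no injection), for Ihh on the left and Gli1 on the right, each with the 5 nearest probe sets in blue, and with Gata2 dashed beside Ihh. Every point is 1 array. The neighbours of Ihh lie within a root mean square distance of 0.10 of it, and those of Gli1 within 0.17.

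Genes that act around Ihh in the progesterone response of the uterus were listed with earlier results of these data known. Of 28 listed, 25 were on the array and 20 analysed. At 6 h 7 of the 20 were at least 2-fold higher than 0 h, and 0, 1, 0 and 1 were at 12, 15, 18 and 24 h, beside 1.41%, 1.83%, 2.05%, 1.14% and 1.06% of all probe sets. Among the 7, Cyp26a1, Fst and Il13ra2 were under the floor at 0 h and passed the filter only through progesterone arrays. For this reason, and because of how the list was chosen, these counts are no test of the list. The median difference of the 20 was 0.30, 0.28, 0.16, -0.07 and 0.09 from 6 to 24 h, against -0.05, 0.03, 0.03, -0.04 and 0.00 over all analysed probe sets. By limma 0 of the 20 passed either test, while 8 against 0 h and 6 over hours were under 0.05 unadjusted, beside 19.0% and 21.4% of all probe sets.

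Gata2, a transcription factor known in the mouse uterus to act with Pgr upstream of Ihh, had log2 expression of 9.78 in uninjected mice and 10.80, 10.69, 10.36, 10.12 and 10.23 at 6, 12, 15, 18 and 24 h. Its order of times, with 6 h highest and 18 h lowest among the progesterone arrays, was that of Ihh, at a distance of 0.16, the 13th smallest of 6920. Its slope within the progesterone arrays was -0.45 ± 0.12 per 12 h (limma, adjusted p = 0.09). Pgr itself, the progesterone receptor, had differences from 0 h of -0.22, -0.14, -0.52, -0.36 and -0.31 and a distance of 0.54. Fkbp5, a steroid-induced co-chaperone, had differences of 1.53, 0.86, 0.62, 0.33 and 0.86. Il13ra2, a decoy receptor for interleukin 13, was under the floor at 0 h, at the lower limit of 5.39, and at least 1.02 higher at 6 h. Hoxa11 and Hoxa10, homeobox factors of the stroma, stood at 1.28 and 0.83 at 6 h and at 0.85 and 0.61 at 24 h. Their adjusted p against 0 h was 0.068 and 0.076 by limma.

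The other genes of that list at 2-fold at 6 h were Errfi1, an inhibitor of the EGF receptor, with 1.02 on its brightest probe set, Cyp26a1, which breaks down retinoic acid, with at least 2.44, and Fst, which binds activin, with at least 1.65. Cyp26a1 and Fst were under the floor at 0 h, which makes these differences lower limits. Fst was again at least 1.47 higher at 24 h. Fgf1, a growth factor, was 1.32 higher at 15 h. Fkbp4 was 0.28 higher at 6 h and 0.37 at 12 h on its brightest probe set, the one counted. Its other probe set was 0.83 and 1.11 higher at these times. Hand2, a stromal factor that restrains growth signals to the epithelium, had differences of 0.48, 0.27, 0.31, 0.51 and 0.45. Esr1, the estrogen receptor, had differences of -0.66, -0.70, -0.61, -0.58 and -0.52 on its brightest probe set (limma, adjusted p = 0.054), and between -0.32 and 0.40 on its other analysed probe sets.

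Among the further genes of the hedgehog lists, Lrp2 passed the test against 0 h and Vegfa the test over hours. Of 6 listed co-receptors and binding proteins 2 were analysed, and Lrp2, the endocytic receptor megalin, which also binds hedgehog ligands, rose by 3.01 ± 0.20 (SE, limma, adjusted p = 0.00057). Lrp2 had log2 expression of 6.90 in uninjected mice and 9.95, 10.21, 9.98, 9.61 and 9.81 at 6, 12, 15, 18 and 24 h, all progesterone arrays lying far above the uninjected one. Gpc3, a glypican, had differences between -0.39 and -0.21. Of 28 listed genes of signal transduction inside the cell, 15 were analysed, 0 passed either limma test and 0 were 2-fold from 0 h at any time. Unadjusted, 4 of 15 against 0 h and 1 of 15 over hours were under 0.05, beside 19.0% and 21.4% of all probe sets. Their median difference was -0.05, -0.10, -0.12, -0.16 and -0.13. Csnk1e, a casein kinase, had a group difference of -0.49 ± 0.20 (limma, adjusted p = 0.23), and Ift172, needed to build the cilium in which the signal is passed on, was -0.62 at 6 h and -0.07 at 24 h. Of 8 listed ligands and genes of ligand release, Dhh alone was analysed, with differences between -0.06 and 0.17.

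Of 18 listed genes that hedgehog signalling is known to induce in other tissues, 11 were analysed and 0 of these were 2-fold from 0 h. Their median difference was -0.04, 0.15, 0.07, 0.07 and 0.09. Mycn, also on this list, was above the floor at 0 h alone and so was not analysed. Its deposited log2 value was 7.32 at 0 h and 6.08 to 6.25 after progesterone. Vegfa, an angiogenic growth factor, fell over hours within the progesterone arrays, by 0.81 ± 0.10 per 12 h (SE, limma, adjusted p = 0.018), with log2 expression of 8.19, 7.70, 7.63, 7.28 and 6.99 from 6 to 24 h. This call was lost with any of the 5 arrays left out (slope -0.87 to -0.76, limma, adjusted p from 0.060 to 0.31), with no filter and under a floor raised to the 60th percentile, where the slope was -0.30. No other gene of this list passed either test. Ccnd1, a cyclin of the G1 phase, had differences of -0.64, 0.28, 0.33, 0.26 and 0.21 on its brightest probe set, lowest at 6 h like Smo and probe set 104030_at of Ptch1. Its other analysed probe set did not share this course, with differences of -0.23, -0.11, -0.23, -0.41 and -0.37, lowest at 18 h. Snai1, a transcriptional repressor, had 0.56, 0.45, 0.62, 0.49 and 0.03. Bcl2 and Wnt5a lay between -0.29 and 0.39.

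**Figure D4:**
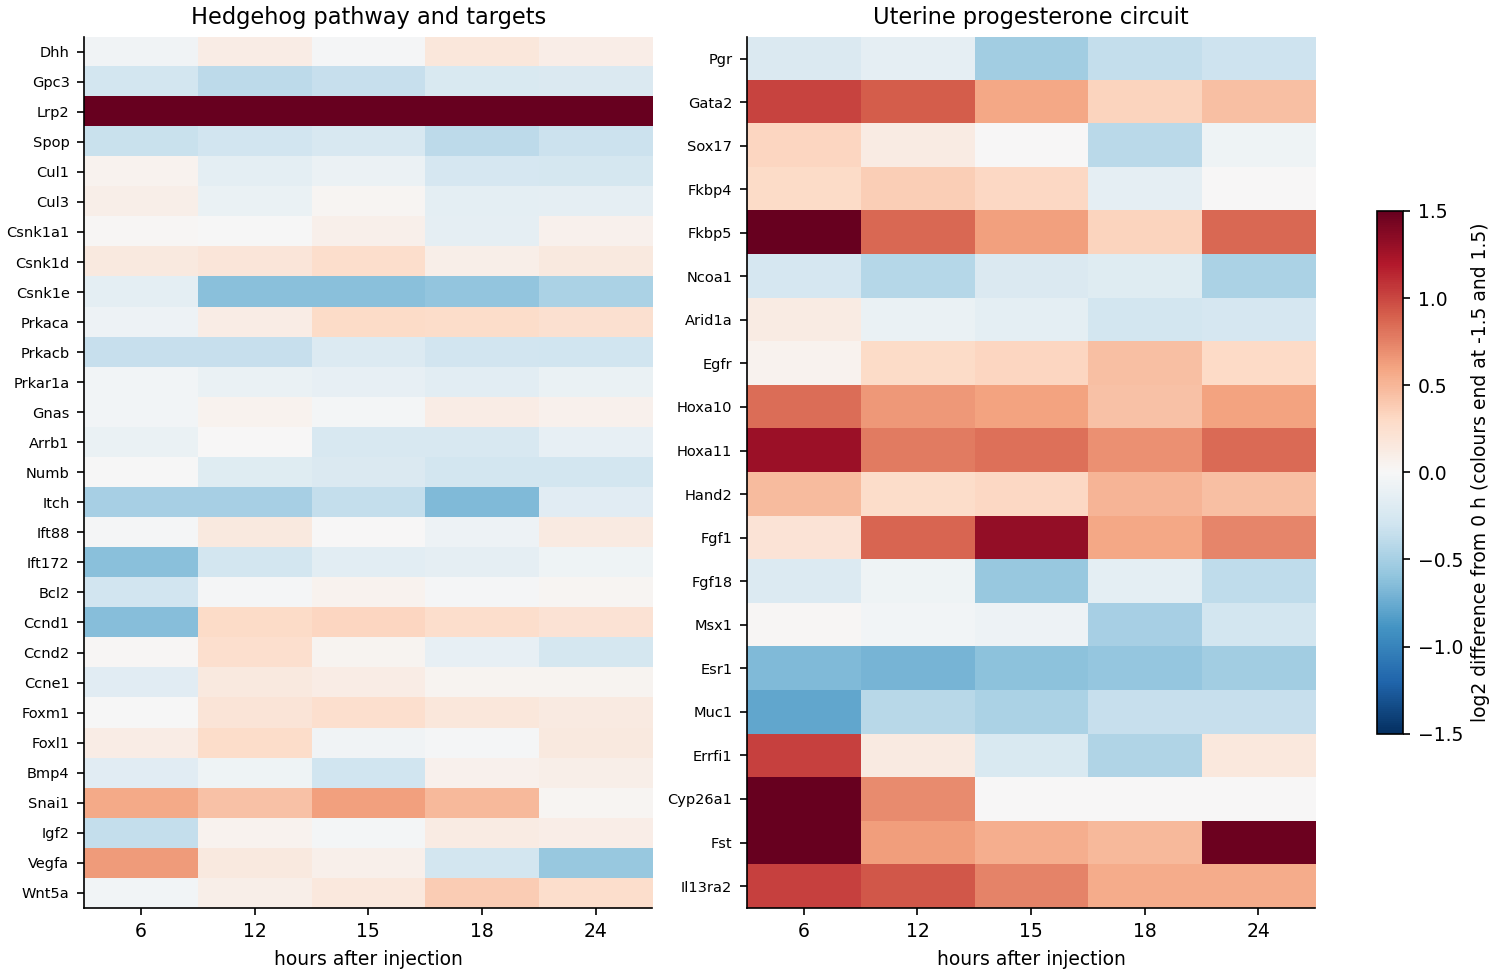
Log2 difference from the 0 h array (colour, red higher and blue lower, ending at -1.5 and 1.5) of each analysed gene of the lists (rows, 1 probe set per gene) at each time after injection (columns, hours). The left panel holds the hedgehog ligands, co-receptors, transduction genes and targets of other tissues, the right panel the uterine progesterone circuit. On the left Lrp2 is dark at all times with 3.01 on average, while on the right Fkbp5, Hoxa11, Cyp26a1 and Fst are darkest at 6 h.

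Markers of the cell types that make and receive the signal were read on the same arrays. All 9 epithelial markers were analysed and above the floor on every array, and their summed linear level lay between 7265 and 8688 after progesterone, against 9681 at 0 h. Epcam fell by 1.12 ± 0.14 and Krt18 by 1.03 ± 0.16 against 0 h (SE, limma, adjusted p = 0.010 and 0.024), and the list's median difference was -0.43, -0.18, -0.29, -0.43 and -0.39. Krt18 lost its call without 12, 15, 18 or 24 h and with no filter (limma, adjusted p up to 0.097), whereas Epcam kept its own in all 11 alternatives that gave a value. Krt7, another keratin of simple epithelia, had differences of -0.43, -0.88, -1.14, -1.45 and -1.34 and passed neither test. Other markers of the list went the other way, with differences of 0.51, 0.56, 0.36, 0.26 and 0.47 for Cldn3. Cldn4 lay between -0.01 and 0.23 and Cldn7 between -0.18 and 0.50, both below 0 h at 18 h only. Of the 9 markers 3, 3, 3, 1 and 3 were higher than 0 h from 6 to 24 h. Ihh, made by the epithelium, was above its 0 h level on all 5 progesterone arrays. The summed level of the epithelial markers was below its own 0 h level on all 5, and Cldn3 was above. A link between them was not tested, and cell number and RNA per cell cannot be told apart. Of 9 stromal markers 7 were analysed, with a sum between 11756 and 13167 after progesterone and 12727 at 0 h. Their median difference was -0.02, -0.07, 0.02, 0.09 and 0.22, and 3, 3, 4, 4 and 5 of the 7 were higher than 0 h. The sum holds Hoxa10 and Hoxa11, higher than 0 h at 6 h by 0.83 and 1.28, and Thy1 and Lum, with differences of -0.70 and -1.22 at 6 h. Dcn, the brightest of the 7 with 12.62 at 0 h, weighs most in it. Its differences were -0.02, -0.21, -0.40, -0.31 and -0.33 from 6 to 24 h. Lum had differences from 0 h of -1.22, -0.71, -0.26, -0.02 and 0.22 from 6 to 24 h. Within the progesterone arrays Lum rose over hours by 0.998 ± 0.11 per 12 h (SE, limma, adjusted p = 0.016), and 0 of the 7 passed against 0 h. The call of Lum was lost without 6, 12 or 18 h and with no filter (limma, adjusted p up to 0.33 over 12 alternatives). Vim and Pdgfrb, usual markers of stroma, were under the floor on these arrays.

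Smooth muscle markers, 7 of 8 analysed, had a sum over 6 of them of 13543 in uninjected mice and 12596, 15429, 15865, 18166 and 17316 at 6, 12, 15, 18 and 24 h. It was lowest at 6 h and highest at 18 h, as was Smo; the first Ptch1 probe set was lowest at 6 h too and highest at 15 and 18 h. The sum over 5 endothelial markers was 1720 to 1963 after progesterone and 2566 at 0 h, while 1, 1, 2, 1 and 4 of the 5 were higher than 0 h from 6 to 24 h, with medians of -0.26, -0.12, -0.12, -0.07 and 0.04. Most of the lower sum came from Cldn5, with differences between -1.47 and -1.05. Cdh5, Tek and Emcn lay between -0.30 and 0.10, and Kdr, under the floor at 0 h, between 0.00 and 0.31. The sum over 6 leukocyte markers was 2026 to 2380 after progesterone and 3021 at 0 h, with Ptprc and Cd3e, which define leukocytes and T cells, under the floor. The brightest of the 6, H2-Aa, had differences of -0.45, -0.88, -0.72, -0.80 and -0.68, and the median of the 6 was -0.30, -0.21, -0.23, -0.46 and -0.19. Of the endothelial markers Cldn5 alone passed a test and fell by 1.29 ± 0.16 (SE, limma, adjusted p = 0.010, and 0.057 without 12 h). The sum over the 2 analysed mesothelial markers was 353 to 501 after progesterone and 520 at 0 h, of which Upk3b had a difference of -1.10 at 6 h and of -0.58 to 0.03 later, and the 1 analysed adipocyte marker, Adipoq, had 118 to 350 against 680 at 0 h. The part of these shifts in the values of the hedgehog genes was not tested.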

How the data were processed

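The authors deposited log2 expression values per probe set; RNA preparation, labelling and hybridization followed the maker of the arrays, per the labels' protocols. The software, background correction and normalization behind them are not given in the sources used. Base 2 was taken because 99.8% of the linear values under 2000 then came out at 4 decimals (within 0.05 of the last). Controls were left out (65 of 12487). The 2% trimmed means of the arrays lay within -4.10% and 3.42% of their median, so values were used as deposited. They were floored at 6.60, and 7731 probe sets above it on at least 2 arrays were analysed. Equal floored values narrow the spread of such genes and can make their p-values too small.

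The limma package (version 3.58.1, R 4.3.3; lmFit, eBayes with an intensity trend, tested on simulated data) fitted all probe sets, with Benjamini-Hochberg adjustment over all tested and a threshold of 0.05. "Rose" and "fell" mark genes that passed. Its p-values measure the spread between times, not between mice. Probe sets with missing values had fewer residual degrees of freedom. A list used 1 probe set per gene, the analysed one with the highest mean, and marker sums used genes with a value on every array. Named were all member probe sets, list genes at 2-fold or called, and the 5 nearest patterns of members spanning 2-fold. Chosen after their values were seen were Gpc3, Csnk1e, Ift172, Dhh, Pgr, Hoxa10, Hand2, Esr1, Ccnd1, Snai1, Bcl2 and Wnt5a. The same holds for Vim, Pdgfrb, Thy1, Dcn, Cldn3, Cldn4, Cldn7, Cdh5, Tek, Emcn, Kdr, H2-Aa, Ptprc and Cd3e, and for the genes of the observations. Members and lists were chosen with earlier results of these data known. Alternatives were other floors (20th and 60th percentile, none), no filter, quantile normalization, rescaling, no trend and leaving out each progesterone array.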

Additional observations from a re-analysis of the deposited data

How the results depend on the processing

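No member changed its call in the comparison with 0 h under any of 12 alternatives, and no member's count at 2-fold changed at any time under the 6 alternatives for single times. The slope of Ihh passed with no floor (-0.71), after quantile normalization (-0.73) and after rescaling (-0.74), and with each array left out it lay between -1.02 and -0.62 without passing (limma, adjusted p from 0.089 to 0.43). The count of probe sets called by limma against 0 h, 208, lay between 43 and 590 with an array left out, the 590 without 6 h. The count over hours, 147, was 71 with the floor at the 60th percentile, where fewer were tested, 285 with no floor, 251 after quantile normalization and 0 with no filter (limma, 1486 at an unadjusted p under 0.05). It lay between 0 and 36 with an array left out, with 0 without 6, 12 or 18 h, where 938, 1385 and 1421 had an unadjusted p under 0.05, and 14 without 15 h. The cause was not tested. With the floor at the 60th percentile, probe sets 2-fold lower numbered 44, 87, 77, 87 and 59 from 6 to 24 h and those 2-fold higher at 12 h 92, in place of 85, 135, 122, 139, 107 and 141. No paired analysis was possible because each time has 1 array. Low signal limits Gli3 and 1 probe set of Nr2f2.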

Other observations

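Several genes of the pathway lists lay under the floor and entered no comparison; their deposited log2 values are given from 0 to 24 h. Shh, the best known hedgehog ligand, stood at 6.04, 6.18, 6.53, 6.57, 5.94 and 6.27, and Cdon, a co-receptor, at 6.52, 6.26, 6.53, 6.31, 6.68 and 6.36, above the floor on 1 array. Wnt4, which acts in the stroma during decidualization, had 6.58 at 0 and 6 h and the lower limit of 5.39 on the 4 later arrays. Bmp2, another factor of decidualization, had at most 6.31 on any of its 3 probe sets. Mycn, a transcription factor that hedgehog signalling induces in the cerebellum, had 7.32 at 0 h and 6.21, 6.19, 6.08, 6.25 and 6.13 from 6 to 24 h, so the uninjected array alone was above the floor. The second probe set of Gata2 had 5.39 at 0 h and 6.44, 6.62, 5.81, 5.44 and 5.80 after progesterone, with its higher values at 6 and 12 h as on the first.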
